A study of Mus musculus with 10 samples.

Results

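The genes examined here code for proteins of the spliceosome, for the SR splicing factors and for some Lsm proteins that act outside splicing. They were taken as every gene of the count table whose symbol starts with Snrp, or with Srsf, Sf3a, Sf3b, Prpf or Lsm followed by a digit, which gave 58 of the 24411 genes listed. A minimum of 1 CPM (a count scaled to the library total) in at least 1 library was passed by 54 of the 58, which were tested together with all 12609 genes that passed. The RNA came from liver homogenate of male C57Bl6/J mice that were 8 weeks old when dosing began and that, per the study's methods, ate a high-fat diet. Over 20 weeks every mouse received repeated intraperitoneal injections of an antisense oligonucleotide (ASO) at 12.5 mg/kg. It was either a non-targeting control ASO (libraries 1 to 5) or an ASO against Mboat7 (libraries 6 to 10). The study's methods call the injections biweekly, while its figure captions give the dose per week. An ASO of this kind pairs with its target mRNA and leads RNase H to cut it, and Mboat7 is the enzyme that returns arachidonic acid to lysophosphatidylinositol. Tissue labels read Normal Liver for libraries 1 to 5 and Severe Fatty Liver for libraries 6 to 10. No library came from an animal without an ASO, the ASO reaches cells other than hepatocytes, and which of the study's Mboat7 ASOs was given to the sequenced mice is not stated.

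Introns are removed by the spliceosome, which is built anew on each intron from small nuclear ribonucleoprotein particles (snRNPs). The U1 and U2 particles mark the splice site at the start of the intron and the branch point near its end, the U4/U6.U5 tri-snRNP joins them, and the assembly is then remodelled into the catalytic machine. SR proteins bind exons and recruit these particles, so their abundance shifts the choice between splice sites. SR genes are known for so-called poison exons, whose inclusion sends the transcript to nonsense-mediated decay. Annotated nonsense-mediated decay transcripts were present in 9 of the 11 SR genes listed (81.8%) and in 25 of all 58 members (43.1%), beside 28.1% of the genes tested. Counts per gene sum over such isoforms and do not separate them, so nothing here measures splicing itself.

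Mboat7 had 951 to 1105 counts in each control ASO library and 60 to 130 in each Mboat7 ASO library, and the groups did not overlap. Its level fell by 3.63 ± 0.17 (SE) on the log2 scale (edgeR quasi-likelihood test, adjusted p = 1.29e-06, n = 5 per group). Library totals ran from 25153235 to 28791798 counts. Liver identity was clear from the summed level of 9 hepatocyte markers, where normalized CPM stands for CPM after upper-quartile scaling. The sum was 128227 to 147961 normalized CPM in the control ASO livers and 80556 to 121194 in the Mboat7 ASO livers. Of the 9, Ass1 had only 0 to 0.40 normalized CPM in each library and was not tested. The 12 general leukocyte markers all rose, from a summed 116 to 188 normalized CPM to 180 to 475, as did 9 of 10 neutrophil markers (0.874 to 3.25, then 3.42 to 51.8) and 8 of 10 Kupffer cell markers (138 to 299, then 236 to 776). The stellate cell and fibroblast markers summed to 146 to 337 and 364 to 565, with 8 of 10 higher, and the proliferation markers to 10.3 to 48.3 and 34.5 to 54.2, with 6 of 10 higher, while 5 of 8 hepatocyte markers fell. Markers of these cells thus moved with the groups, their part in the results below was not tested, and in whole liver a change in the number of cells of a type cannot be told apart from a change in RNA per cell.

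Promoters are shown for the member with the lowest adjusted p among all 54, for the Sm protein next to it and for the member with the highest fold change, since these carry the values that follow. They are RefSeq sequences of GRCm38.p6, from 250 bases before to 50 bases after the start of the gene in RefSeq on its own strand. The gene coordinates given further on are those of GENCODE, in which Snrpd3 starts upstream of the window shown. Capitals mark GGGCGG (the GC box), CCGGAAGT (an ETS-type motif) and CCAAT, each on either strand, and neighbouring matches may share bases, as the GC box and the ETS motif do near the start of Srsf5. Srsf5 spans chr12:80945249-80945548 (+), Snrpd3 chr10:75517792-75518091 (+) and Lsm11 chr11:45944886-45945185 (-).
Srsf5: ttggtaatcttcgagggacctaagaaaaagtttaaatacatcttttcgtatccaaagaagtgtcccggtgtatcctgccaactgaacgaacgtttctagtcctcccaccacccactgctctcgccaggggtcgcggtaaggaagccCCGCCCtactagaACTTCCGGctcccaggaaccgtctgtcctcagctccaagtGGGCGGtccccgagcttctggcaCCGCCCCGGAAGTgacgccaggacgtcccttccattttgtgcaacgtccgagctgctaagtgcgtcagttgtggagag
Snrpd3: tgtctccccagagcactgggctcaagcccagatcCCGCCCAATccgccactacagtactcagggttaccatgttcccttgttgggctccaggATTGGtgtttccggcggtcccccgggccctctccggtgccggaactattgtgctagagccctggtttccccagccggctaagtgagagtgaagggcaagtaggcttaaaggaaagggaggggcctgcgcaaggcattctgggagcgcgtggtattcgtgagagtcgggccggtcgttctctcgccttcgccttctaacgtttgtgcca
Lsm11: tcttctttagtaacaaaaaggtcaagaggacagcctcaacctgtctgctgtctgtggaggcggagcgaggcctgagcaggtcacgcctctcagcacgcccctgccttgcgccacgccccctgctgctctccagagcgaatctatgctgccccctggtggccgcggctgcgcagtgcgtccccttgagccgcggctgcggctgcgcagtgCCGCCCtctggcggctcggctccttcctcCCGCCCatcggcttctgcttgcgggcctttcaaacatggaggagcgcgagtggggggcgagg

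These promoters have the CpG-rich make-up of genes that most cells use. A promoter entry was matched for 49 of the 58 members, with a median of 24 CpG, against 7 over all 27025 mouse promoters of the same length and 20 over the 9673 of genes tested here. GGGCGG was found in 34 of the 49 (69.4%), beside 35.9% of all promoters and 63.1% of those of genes tested. The ETS letters stood in 9 members (18.4%), beside 3.99% and 8.22%, and CCAAT in 21 (42.9%), beside 38% and 38.8%. All 12 members that fell and the members with an entry that rose held a GC box, so the motif did not separate the directions.

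A minority of the members changed in the Mboat7 ASO livers, and the changes were small. Of the 54 members tested, 12 fell and 3 rose at a Benjamini-Hochberg false discovery rate (FDR) of 0.05 over all genes, and 39 did not pass. Over all genes tested, 17.3% fell and 21.2% rose. Members therefore fell at a share near the background (22.2%) and rose at a share of 5.56%, and no test of the list was made. The log2 fold change was below 0 in 40 members and above 0 in 14, with a median of -0.12, beside a median of 0.01 over all genes. No member differed by 1.5-fold or more, whereas 18.0% of all genes tested did. The members that fell were Srsf5, Snrpd3, Lsm10, Snrpa, Lsm2, Lsm14b, Prpf40b, Snrpd2, Sf3a2, Srsf4, Prpf6 and Srsf11, and those that rose included Lsm11 and Prpf4b. The 2 groups of libraries did not overlap for 8 members that were lower and 2 that were higher in the Mboat7 ASO livers, beside 10.7% and 10.5% of all genes.

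**Figure D1:**
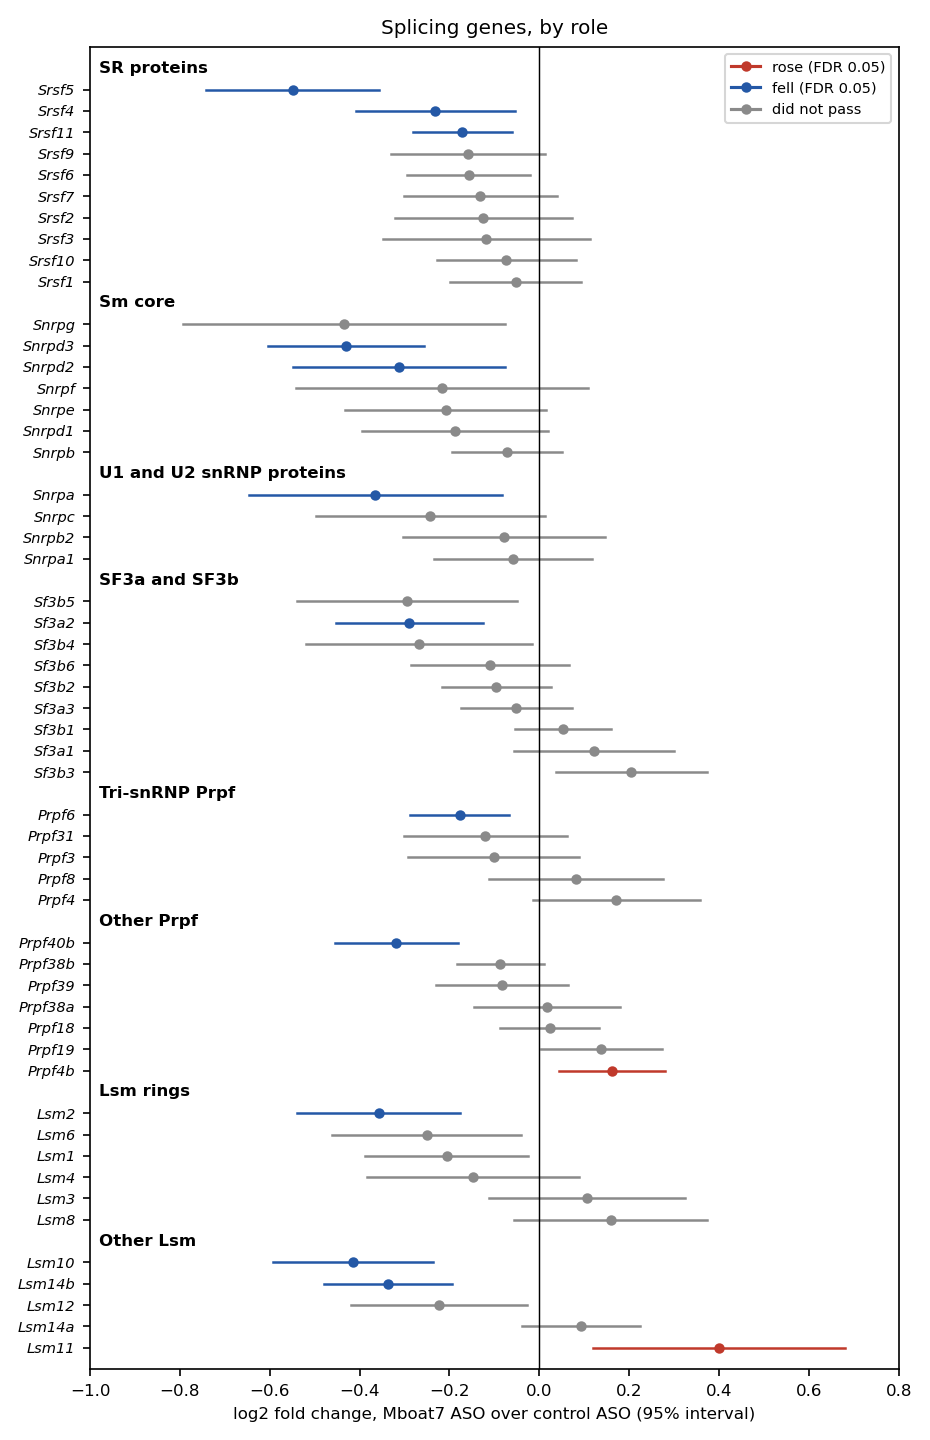
Log2 fold change of the members reported here, Mboat7 ASO over control ASO, with 95% intervals (x axis) for each gene (y axis), grouped by role (n = 5 livers per group). Blue marks the 12 that fell, red those that rose and grey the 39 that did not pass. Points in the SR, Sm and U1/U2 groups all lie left of 0. Some turn to the right of it without normalization factors or with the length trend removed.

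The direction of the list rests on scaling. Upper-quartile factors were 0.926 to 0.959 in the control ASO libraries and 1.01 to 1.11 in the Mboat7 ASO libraries, and without such factors the median log2 fold change of all genes shifted by 0.16. Without factors 13 members rose and 3 fell (Srsf5, Snrpd3 and Lsm10), the members' median was 0.04 against 0.17 for all genes, and 85.8% of all calls were higher, against 55.0% with the factors. Members took 0.197 to 0.202% of a control ASO library's counts and 0.206 to 0.219% of a Mboat7 ASO library's, while their summed normalized CPM was 2055 to 2185 and 1969 to 2081. The 10 most abundant genes of each library held 19% to 20.8% of the counts in the control ASO group and 16.7% to 19.7% in the other, and the part of this in the shift was not tested. All changes below are relative to the upper-quartile scale.

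Srsf5, of the SR proteins, had the lowest log2 fold change of all members. Of the 10 SR genes tested, 3 fell, none rose, and all 10 had a log2 fold change below 0 (median -0.14), although those that did not pass turned to above 0 without normalization factors. Srsf5, an SR protein first described in rat as a gene induced by insulin and in regenerating liver, had 140.4, 107, 144, 114 and 114 normalized CPM in control ASO libraries 1 to 5 and 84.3, 87.4, 77.6, 85.4 and 88.8 in Mboat7 ASO libraries 6 to 10. Every Mboat7 ASO liver was below every control ASO liver, with controls 1 and 3 the highest and the Mboat7 ASO livers close together. The gene (chromosome 12, 80945504 to 80950507, plus strand) fell by 0.55 ± 0.09 (SE) on the log2 scale, to 68.3% of its control level (adjusted p = 0.00238). It was called in all 21 alternative settings, with log2 fold changes of -0.60 to -0.39.

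Srsf11, an SR protein that takes part in the inclusion of very short exons, read 66.7, 64.3, 73.1, 62.6 and 66.8 in the control ASO livers and 57.9, 61.3, 57.9, 58.4 and 60.7 in the Mboat7 ASO livers. The groups did not overlap, but only a narrow gap lay between them, and the gene fell by 0.17 ± 0.05 (SE) on the log2 scale (adjusted p = 0.0216). Srsf4, which is close to Srsf5 and Srsf6 in sequence, had 50.8, 64.1, 61.1, 56.9 and 61.2 normalized CPM in the control ASO livers against 47.2, 48.6, 44.3, 54.3 and 56.1. Control liver 1 lay among the Mboat7 ASO livers, so these groups overlapped. Srsf4 fell by 0.23 ± 0.08 (SE) on the log2 scale (adjusted p = 0.0412), a call that was lost in 7 of the 10 fits without 1 library (control 2, 3, 4 or 5, Mboat7 ASO 6, 7 or 8, adjusted p = 0.0555 to 0.0915) and with no filter (0.0507). The remaining SR genes did not pass, with log2 fold changes of -0.16 for Srsf9 and Srsf6, -0.13 for Srsf7, -0.12 for Srsf2 and Srsf3, -0.07 for Srsf10 and -0.05 for Srsf1. Srsf6 (adjusted p = 0.0665) and Srsf7 (0.198) passed when a single library was left out, Srsf6 without control 2 or Mboat7 ASO 10 (0.0417 and 0.0479) and Srsf7 without control 1 (0.0344). Summed over the class, SR genes had 614 to 718 normalized CPM in the control ASO livers. The sum was 516 to 591 in the Mboat7 ASO livers, without overlap on the upper-quartile scale. Srsf5 is part of the sum, with group means of 124 and 84.7 beside 652 and 566 for the class. Whether the sums separate under other scaling was not tested.

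The Sm proteins form the ring of 7 subunits that sits on the U1, U2, U4 and U5 RNAs. All 7 Sm genes tested had a log2 fold change below 0 (median -0.22), and 2 passed. Most Sm genes are short, with a median exon length of 1372 bases. In the quintile of all genes with the shortest exons, the median was -0.19 and 37.8% fell. With the trend across gene length removed, as described below, Snrpb, Snrpf and Snrpd1 lay above 0 (0.15, 0.052 and 0.00021). Summed over the Sm genes, the control ASO livers had 108 to 126 normalized CPM and the Mboat7 ASO livers 94.5 to 107. These ranges did not overlap on the upper-quartile scale, but control 4 (107.5) and Mboat7 ASO 6 (106.7) lay side by side. Snrpd3, described next, is part of the sum, and the sum without it was not examined. Snrpd3 (chromosome 10, 75517551 to 75537381, plus strand) had 39.6, 32.9, 40.5, 31.9 and 33.8 normalized CPM in the control ASO livers and 28.4, 25.5, 24.5, 28.4 and 25.7 in the Mboat7 ASO livers. The groups were fully separate, again with controls 1 and 3 highest, as for Srsf5. Snrpd3 fell by 0.43 ± 0.08 (SE) on the log2 scale, to 74.2% of control (adjusted p = 0.00339), and like Srsf5 it was called in all 21 alternatives (-0.48 to -0.27). Its exons share 113 bases with Gucd1 on the opposite strand, which did not pass (log2 fold change 0.01).

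Snrpd2, the partner of Snrpd1 in the ring, had 8.22, 8.98, 9.10, 6.46 and 7.11 normalized CPM in the control ASO livers and 7.03, 6.04, 6.27, 6.31 and 6.41 in the others. Control 4 overlapped the Mboat7 ASO livers, and control 5 lay just above the highest of them. The gene fell by 0.31 ± 0.11 (SE) on the log2 scale (adjusted p = 0.0398), and the call was lost in 7 of the 10 fits without 1 library (control 1, 2 or 3, Mboat7 ASO 7, 8, 9 or 10, adjusted p = 0.0679 to 0.0996), as it was with no filter (0.0519) and in limma-voom without or with quality weights (0.0521 and 0.0752). Snrpg had the lowest point estimate of the class, -0.44 ± 0.16 (SE), on 1.94 to 2.79 normalized CPM in the control ASO livers and 1.40 to 2.13 in the others, and did not pass (adjusted p = 0.0544, and 0.0408 without control 5 or 0.0417 without Mboat7 ASO 9). Snrpf, Snrpe, Snrpd1 and Snrpb lay at -0.22, -0.21, -0.19 and -0.07 and did not pass. Snrpf is uncertain, because 89.5% of the 50-base windows of its exons also occur in another annotated gene, on either strand. Its exons share 567 bases with Ccdc38, which overlaps it on the opposite strand. Ccdc38 had 46 counts in all libraries together, against 370 for Snrpf.

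Of the 4 genes for proteins particular to the U1 and U2 snRNPs, 1 passed, with overlap between the groups. Snrpa codes for the A protein of U1, which binds a stem-loop of U1 RNA, and it had 26.2, 20.7, 21.6, 17.1 and 15.4 normalized CPM in the control ASO livers against 15.3, 15.7, 17.9, 14.6 and 15.1. Control liver 1 stood high, and controls 4 and 5 lay within the range of the Mboat7 ASO group. Snrpa fell by 0.37 ± 0.13 (SE) on the log2 scale (adjusted p = 0.0428), with the call lost in 7 of the 10 fits without 1 library (control 1, 2 or 3, Mboat7 ASO 6, 7, 9 or 10, adjusted p = 0.0624 to 0.0909) and in limma-voom without or with quality weights (0.0566 and 0.0984). Its exons share 117 bases with BC024978 on the opposite strand, which also fell (log2 fold change -0.36), and reads of the shared bases cannot be assigned where the counting strand is not stated. Snrpc (the C protein of U1) at -0.24, Snrpb2 at -0.08 and Snrpa1 at -0.06, both of U2, did not pass. Snrpc passed without control 4 (adjusted p = 0.0431).

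The SF3a and SF3b complexes belong to the U2 particle and hold the branch point. They stayed close to the control level, with 1 of 9 genes called, 6 below 0, 3 above 0 and a median of -0.10. Sf3a2 had 19.5, 18.4, 23.1, 20.4 and 21.6 normalized CPM in the control ASO livers and 18.4, 17.8, 16.0, 15.8 and 16.1 in the Mboat7 ASO livers. The groups met at control 2 and Mboat7 ASO 6. The gene fell by 0.29 ± 0.07 (SE) on the log2 scale (adjusted p = 0.0119), and Plekhj1, which shares 429 exon bases with it on the opposite strand, fell by 0.42. Sf3b1, the large subunit that clamps the branch point, was among the most even members, with 141 to 154 normalized CPM in the control ASO livers and 147 to 162 in the Mboat7 ASO livers and a log2 fold change of 0.05 (95% interval -0.05 to 0.16).

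The other SF3 genes did not pass. Sf3b5 lay at -0.29 (adjusted p = 0.0566, and 0.0282 without control 4 or 0.0434 without control 5), Sf3b4 at -0.27, Sf3b6 at -0.11, Sf3b2 at -0.10, Sf3a3 at -0.05, Sf3a1 at 0.12 and Sf3b3 at 0.20. Sf3b4 turned on a single liver, with 4.36, 5.89, 4.05, 4.33 and 4.18 normalized CPM in the Mboat7 ASO livers against 5.28 to 5.63 in the controls. Without Mboat7 ASO 7 its log2 fold change was -0.38 and it passed (adjusted p = 0.0122). Without control 5, Sf3b3 (0.0156) and Sf3a1 (0.027) passed as higher.

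Among the PRPF proteins of the tri-snRNP, 1 of 5 genes was called. Prpf6, which bridges the U5 and U4/U6 particles, had 62.7, 66.8, 64.7, 64.2 and 62.9 normalized CPM in the control ASO livers and 55.3, 62.6, 56.7, 55.9 and 53.5 in the Mboat7 ASO livers. Mboat7 ASO 7 lay just under the lowest control, and the other livers of its group were further below. Prpf6 fell by 0.18 ± 0.05 (SE) on the log2 scale (adjusted p = 0.0183), and without control 2 and Mboat7 ASO 9, the livers with the highest and the lowest leukocyte marker sum of their groups, the adjusted p was 0.0632. That setting also ended the calls of Srsf4, Snrpd2, Snrpa and Prpf4b (adjusted p = 0.0605 to 0.118). Prpf8, the core scaffold of the active site, ranged from 220.2 to 281 in the control ASO livers and from 221 to 296 in the others (log2 fold change 0.08, 95% interval -0.11 to 0.28). Prpf31 at -0.12, Prpf3 at -0.10 and Prpf4 at 0.17 did not pass either.

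Among the remaining PRPF genes, both directions were seen. Prpf40b, a WW-domain protein, had 18.1, 18.2, 20.8, 17.7 and 17.5 normalized CPM in the control ASO livers against 14.3, 14.6, 14.5, 15.7 and 14.9. Its groups did not overlap, and it fell by 0.32 ± 0.06 (SE) on the log2 scale (adjusted p = 0.00415), a call kept in all fits without 1 library.

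Prpf4b, a kinase that phosphorylates spliceosome proteins before activation, read 42.9, 39.7, 43.8, 45.6 and 43.0 in the control ASO livers and 46.9, 45.9, 52.4, 46.3 and 49.1 in the Mboat7 ASO livers. The groups did not overlap, but control 4 and Mboat7 ASO 7 lay side by side. It rose by 0.16 ± 0.05 (SE) on the log2 scale (adjusted p = 0.0336), and the call was lost in 7 of the 10 fits without 1 library (control 1, 2, 3 or 5, Mboat7 ASO 6, 8 or 10, adjusted p = 0.0545 to 0.0773). TMM or RLE factors, no filter, DESeq2 and the likelihood ratio test ended it too (adjusted p = 0.0606 to 0.0714). Prpf19, the ubiquitin ligase that gives its name to a complex needed for activation, had 109 to 128 normalized CPM in the control ASO livers and 123 to 136 in the others and did not pass (log2 fold change 0.14, adjusted p = 0.0927, and 0.0445 without control 2). Prpf38b at -0.09, Prpf39 at -0.08, Prpf38a at 0.02 and Prpf18 at 0.02 did not pass.

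Lsm proteins resemble Sm proteins. Lsm2 to Lsm8 form the ring on U6 RNA in the nucleus, and with Lsm1 in place of Lsm8 the ring acts in cytoplasmic mRNA decay. Of the 6 ring genes tested, Lsm2 alone was called. It had 11.6, 12.4, 11.8, 9.94 and 11.3 normalized CPM in the control ASO livers and 9.10, 9.36, 8.56, 9.61 and 7.93 in the Mboat7 ASO livers. The groups did not overlap, with a small gap between control 4 and Mboat7 ASO 9, and Lsm2 fell by 0.36 ± 0.08 (SE) on the log2 scale (adjusted p = 0.00762). Lsm6 at -0.25 (adjusted p = 0.0586, and 0.0256 without control 5 or 0.033 without Mboat7 ASO 7), Lsm1 at -0.21 (0.0682, and 0.0294 without control 5), Lsm4 at -0.15, Lsm3 at 0.11 and Lsm8 at 0.16 did not pass. The subunits that tell the rings apart, Lsm1 and Lsm8, had estimates of opposite sign. Neither passed the threshold, and the difference between them was not tested.

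Both Lsm proteins of the U7 particle, which cuts the ends of histone mRNAs and takes no part in splicing, were called, in opposite directions. Neither passed with the trend across gene length removed, as described below. Lsm10 (chromosome 4, 126096623 to 126098584, plus strand) had 15.1, 15.1, 12.4, 14.5 and 12.6 normalized CPM in the control ASO livers and 10.6, 11.4, 10.4, 10.4 and 9.54 in the Mboat7 ASO livers. Every Mboat7 ASO liver lay below every control, and Lsm10 fell by 0.41 ± 0.08 (SE) on the log2 scale (adjusted p = 0.00418). Lsm11 (chromosome 11, 45928269 to 45944935, minus strand) was among the rarest members, with 3.98, 4.13, 3.35, 3.66 and 3.0 normalized CPM against 4.33, 5.66, 4.59, 4.22 and 5.13. Its groups did not overlap, with control 2 just under Mboat7 ASO 9. It rose by 0.40 ± 0.13 (SE) on the log2 scale (adjusted p = 0.0297), and the call was lost in 5 of the 10 fits without 1 library (control 3, 4 or 5, Mboat7 ASO 7 or 10, adjusted p = 0.0505 to 0.0691).

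Lsm14b, a protein of cytoplasmic mRNA-protein granules, had 33.9, 27.6, 34.3, 29.3 and 31.7 normalized CPM in the control ASO livers and 26.2, 24.3, 24.6, 24.9 and 24.2 in the Mboat7 ASO livers. The groups were separate, and the Mboat7 ASO livers lay within a far narrower range than the controls. Lsm14b fell by 0.34 ± 0.07 (SE) on the log2 scale (adjusted p = 0.00403). Its paralog Lsm14a ranged from 32.8 to 36.7 and from 34.4 to 41.6 and did not pass (log2 fold change 0.09, 95% interval -0.04 to 0.23). Lsm12 at -0.22 did not pass (adjusted p = 0.0667, and 0.0153 without control 2).

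**Figure D2:**
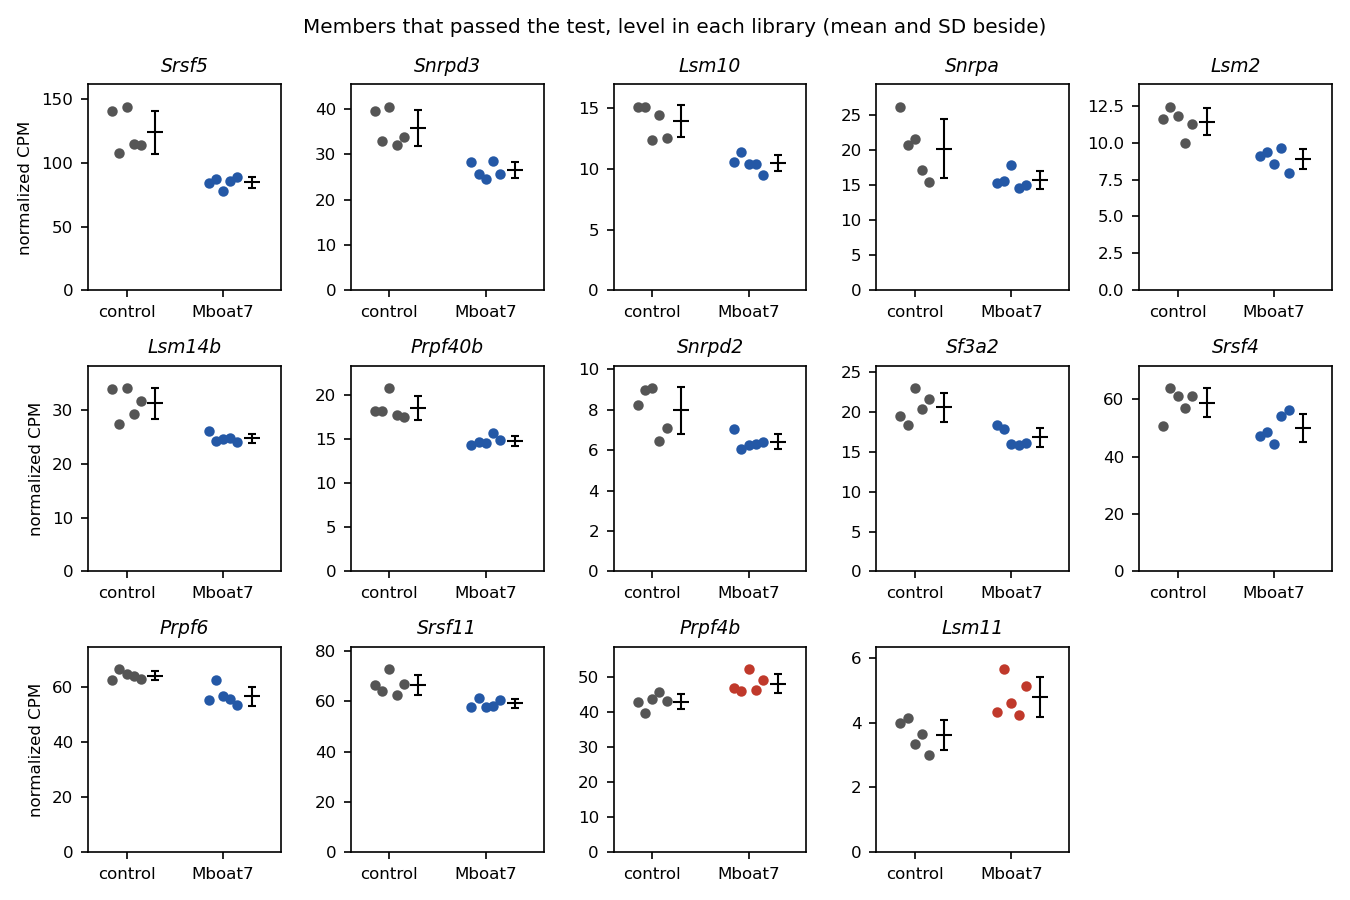
Normalized CPM (y axis, from 0) of members that passed the test, with 1 point per library for the control ASO and Mboat7 ASO groups (5 each) and the mean with its SD beside each group. For Srsf5, Snrpd3, Lsm10 and Lsm14b every Mboat7 ASO point lies below every control point, and for Lsm11 and Prpf4b every one lies above.

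For the 39 members that did not pass, the intervals bound the change on the upper-quartile scale, given the spread between libraries. All but Snrpg had 95% intervals within 1.5-fold in either direction (38 of 39), with a median half-width of 0.18 on the log2 scale. Snrpg reached down to -0.79, and the highest upper bound was 0.37, for Lsm8. These intervals do not cover the choice of scaling or the trend with gene length described below. Over the alternative settings the estimate of Lsm8 reached up to 0.42 and that of Sf3b1 down to -0.10, both outside their intervals.

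Levels between members can be compared per kilobase of exon. In the control ASO livers Srsf5 was the most abundant (74.9 normalized CPM per kb), followed by Snrpb (46.3), Sf3b2 (42), Srsf2 (40.7) and Prpf8 (33.3). Snrpf (1.71), most of whose windows are shared with other genes, and Snrpg (2.28) were low. The Sm ring holds its 7 subunits in equal number as proteins, which these mRNA levels do not measure. Lsm11, which was called, had 0.562 over its long exons. A total of 4 members failed the minimum in CPM. Lsm5 had 0.932 and Lsm7 0.295 normalized CPM per kb, with 6 to 19 and 3 to 13 counts per library, Srsf12 had 0 to 4 counts, and Snrpn, a mainly neuronal Sm gene, had no count in any library. A count of 0 allows up to 3 counts in that library, by counting error alone. Snrpn also shares 216 exon bases on the same strand with Snurf, which had no count either. Reads of the shared bases may have gone unassigned, which was not tested.

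Part of the members' sequence is also found in other genes. Windows were matched on either strand, so those of a gene that overlaps the member at the same place count as shared too. Over 10% of the 50-base windows occurred in another annotated gene for 18 of the 58 members, and over 50% did so for Snrpf (89.5%), Srsf4 (65.4%) and Sf3b4 (51.2%). For Lsm5 (35%), Lsm7 (23.3%) and Snrpg (18.6%) the other genes were mainly predicted gene models. The reads were 50 bases long, so reads from such windows may be lost or moved to the other gene, and the effect on these levels was not tested. Srsf5 also shared 23.6% of its windows, with Gm12966. For Srsf4 the sharing gene was Gm12992 on the opposite strand, which had 406 counts in all libraries together against 14714 for Srsf4 and did not pass (log2 fold change -0.54, adjusted p = 0.0645).

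**Figure D3:**
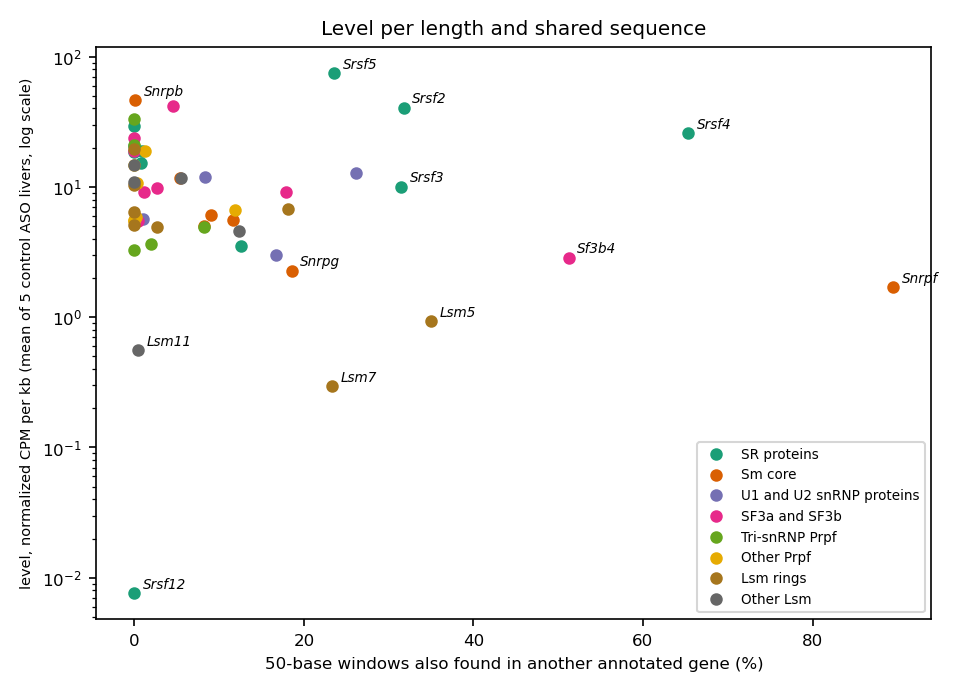
Mean level of the members reported here that had a count in the 5 control ASO livers, in normalized CPM per kb of merged exons (y axis, log scale), against the percentage of its 50-base exon windows that also occur in another annotated gene (x axis), coloured by role. Windows of a gene that overlaps the member, on either strand, count as shared. Srsf5 is highest at 74.9, while Lsm5, Lsm7, Snrpg and Snrpf lie low and to the right and Srsf12 is lowest.

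Genes of the pathway outside the naming rule were counted on 6 lists, to be read beside the 17.3% that fell and 21.2% that rose over all genes tested. Of 28 other snRNP proteins, 8 fell and 3 rose (median log2 fold change -0.14), and of 26 factors of the Prp19 complex and the catalytic steps, 6 fell and 2 rose (median -0.08). U2af1, the small subunit that reads the AG at the end of the intron, fell by 0.61 ± 0.10 (SE) on the log2 scale (adjusted p = 0.00244). It had 6.92, 6.87, 8.16, 8.63 and 8.25 normalized CPM in the control ASO livers and 5.65, 4.83, 5.05, 5.25 and 4.67 in the Mboat7 ASO livers, which lay apart. Phf5a, a subunit of SF3b, fell by 0.34, and Snrnp48, a protein of the minor spliceosome, by 0.34, whereas the helicases Ddx46, Snrnp200 and Dhx15 rose by 0.25, 0.34 and 0.17. In the catalytic list Syf2, Xab2 and Ppie fell by 0.21, 0.23 and 0.34, and the helicases Aqr and Dhx8 rose by 0.26 and 0.19. Other helicases of these lists did not pass, among them Dhx38 at 0.12 and Ddx23 at 0.07. Ddx41 at -0.04, Ddx42 at -0.06, Dhx16 at -0.12 and Dhx35 at -0.17 did not pass either. The calls of Dhx15 (5 of 10) and Dhx8 (8 of 10) were lost in fits without 1 library, with adjusted p up to 0.0696 and 0.08.

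Regulators of splice-site choice differed between lists. Of 25 hnRNP genes, whose products often oppose SR proteins, 9 fell (36%) and 1 rose (4%), with a median of -0.04. Hnrnph3 had 26.2, 19.8, 30.7, 24.2 and 28.4 normalized CPM in the control ASO livers and 17.9, 15.6, 19.6, 19.0 and 14.1 in the others, and it fell by 0.59 ± 0.12 (SE) on the log2 scale (adjusted p = 0.00536). The highest Mboat7 ASO liver was only just below control 2. Hnrnpc and Hnrnpl fell by 0.22 and 0.18, and Syncrip rose by 0.41. The number of hnRNP genes that fell dropped to 3 to 5 without control 1, 3 or 5 or Mboat7 ASO 8 or 10.

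Of the 23 tissue- or signal-regulated splicing factors tested, 4 fell and 4 rose, the nearest to an even split. Mbnl2, a muscleblind protein that binds CUG-like repeats, had 48.6, 53.2, 40.4, 45.5 and 41.5 normalized CPM in the control ASO livers and 78.1, 72.3, 80.1, 70.8 and 78.8 in the Mboat7 ASO livers. The groups were far apart, and it rose by 0.73 ± 0.08 (SE) on the log2 scale (adjusted p = 0.000968). Celf2 rose by 0.40 and Qk by 0.23, and Khdrbs3, Tardbp and Tial1 fell by 0.26, 0.26 and 0.25. Among 23 SR-related proteins and SR kinases, 4 fell and 2 rose. Of the kinases that phosphorylate SR proteins, Clk2 and Clk3 fell by 0.46 and 0.36 and Srpk2 rose by 0.24. Clk4 at -0.23, Clk1 at -0.005 and Srpk1 at 0.03 did not pass. With the length trend removed, as described below, Srpk2 did not pass either. Luc7l2 fell by 0.31 and Scaf11 rose by 0.17 (lost without control 1, control 3 or Mboat7 ASO 10, adjusted p up to 0.0555). Of 16 genes for SMN and Sm ring assembly, Phax, the export adaptor of snRNAs, fell by 0.29 and none rose. Without normalization factors, the falls of Phf5a, Snrnp48, Syf2, Xab2, Ppie, Hnrnpc, Hnrnpl, Khdrbs3, Tardbp, Tial1, Clk3, Luc7l2 and Phax did not pass.

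**Figure D4:**
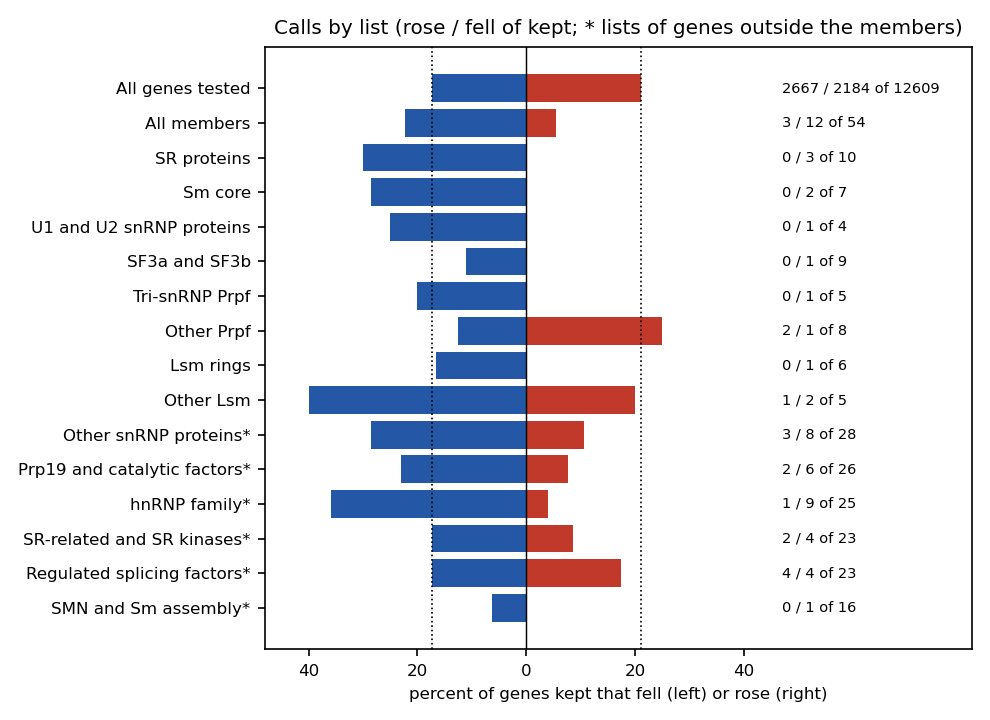
Percentage of tested genes that fell (blue, left) or rose (red, right) at FDR 0.05 in each member class and in the lists of other pathway genes (starred), with the counts at the right and dotted lines at the shares over all genes tested (17.3% and 21.2%). SR proteins and hnRNP genes show 3 of 10 and 9 of 25 lower, and the other PRPF genes are the single member class with more higher (2) than lower (1).

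Fold changes followed gene length, among the members as over all genes. Merged exon length came from the GENCODE annotation of GRCm38. The Spearman correlation between log2 fold change and length was 0.44 over the 54 members and 0.37 over 12549 genes, a description across genes of the same libraries. In the quintile of shortest genes the median log2 fold change was -0.19, and in that of the longest it was 0.20. The 19 members in the shortest quintile held 5 that fell, the 9 in the next held 2 and the 13 in the middle quintile held 5, with none that rose, whereas the 8 members of the longest quintile held all 3 that rose and none that fell. Over all genes, 37.8%, 22.3% and 13.7% fell in the shortest, the next and the middle quintile, and 39.4% rose in the longest. Lsm10 (943 bases) and Lsm11 (6453 bases), the proteins of the U7 particle, were split in this order of length.

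With the length trend removed by a smooth offset in each library, 12 members were called, 6 of them among the 15 above. Srsf5 (log2 fold change -0.40), Snrpd3, Prpf40b, Lsm14b, Prpf6 and Srsf11 were still lower. Lsm10, Lsm2 and Lsm11 did not pass (adjusted p = 0.153, 0.175 and 0.164), nor did Snrpa, Snrpd2, Sf3a2 and Srsf4, and Prpf4b turned to -0.04. In that setting the short genes Lsm8, Lsm3 and Snrpb passed as higher, and Sf3b5, Srsf6 and Lsm6 as lower. Outside the members, Ddx46, Snrnp200, Aqr, Dhx8, Syncrip, Celf2, Srpk2, Scaf11, Ppie and Syf2 no longer passed, and Qk turned to -0.07. The source of the length trend was not tested.

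**Figure D5:**
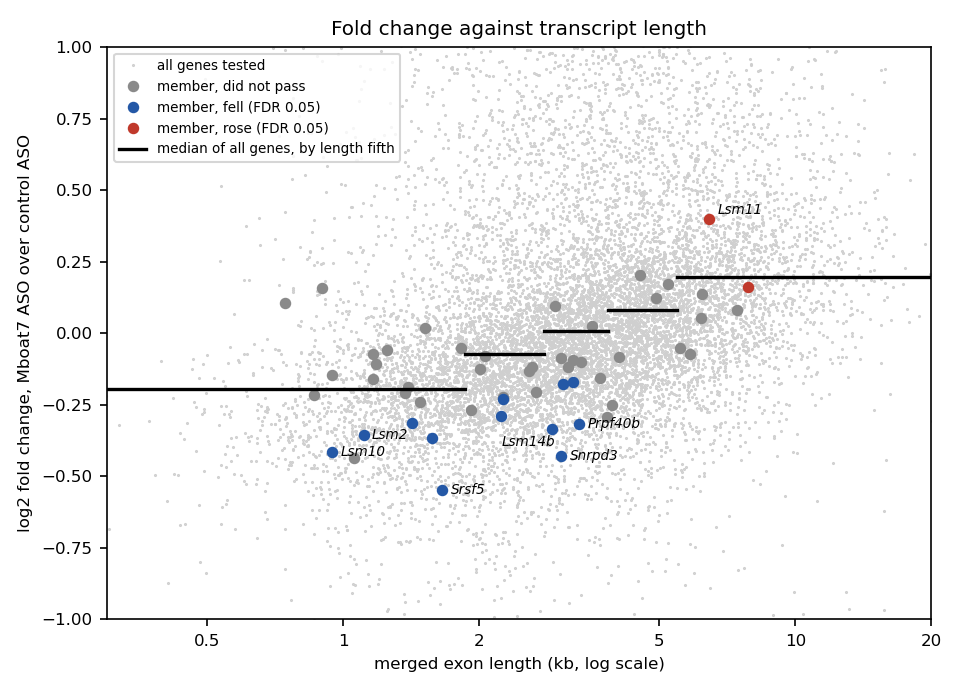
Log2 fold change, Mboat7 ASO over control ASO (y axis, -1 to 1, genes beyond it not drawn), against merged exon length in kb (x axis, log scale) for all genes tested (small grey points) and the members reported here (large points, blue fell, red rose, grey did not pass). Black lines give the median of all genes in each length quintile, from -0.19 to 0.20, and the members drawn that rose are in the longest quintile.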

How the data were processed

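Per the labels and the study's methods, the authors sequenced directional mRNA libraries of 10 livers as 50-base single-end reads, used Trim Galore 0.3.3 for trimming and FastQC 0.11.3 for quality control, and aligned and counted reads with STAR on mm10 and a UCSC annotation. The table deposited by the authors holds raw counts for each gene symbol. Which strand was counted is not stated in those sources, so reads of overlapping genes cannot be told apart. A further 10 columns of per-sample values in the table matched no label and were not used.

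Counts were filtered to genes with at least 1 CPM in at least 1 library (12609 of 24411), given upper-quartile factors and fitted with edgeR (quasi-likelihood test, no covariate), Benjamini-Hochberg FDR 0.05, Mboat7 ASO against control ASO, 5 libraries each. The biological coefficient of variation was 0.166, and 1 count was worth 0.0314 to 0.0429 normalized CPM. Between libraries of a group the chi-square was 21.8 to 85.7 per degree of freedom, so each was kept as a replicate. The labels tie no library to a numbered mouse, so p-values measure the spread between these libraries. The members and lists were chosen with earlier results of these data known, so lists are described by counts and medians beside all genes. Genes were named by a rule on p within each class and list. Lengths came from the GENCODE annotation of GRCm38, the assembly of mm10, for 99.5% of genes tested, and promoters from RefSeq. The values of 1 member are not reported here, while counts, sums and medians include it. Alternatives changed the normalization, filter, FDR or test, removed the length trend or left out libraries. The edgeR step was tested on simulated data. Software was R 4.3.3, edgeR 4.0.16, limma 3.58.1 and DESeq2 1.42.0.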

Additional observations from a re-analysis of the deposited data

Results flagged for a closer look

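Within each group of 5 libraries, the highest or lowest value was set against the other 4 for every member tested, by Dixon's 95% criterion. In 4 of 108 groups a library stood apart, and chance gives about 1 in 20. Sf3b6 had 22.9 normalized CPM in Mboat7 ASO 7, against 19.5 to 20.5 in the other livers of that group. Sf3b4 had 5.89 in the same library, against 4.05 to 4.36. Prpf40b had 20.8 in control 3, against 17.5 to 18.2 in the other controls, and it fell with or without that liver. Prpf31 had 12.8 in Mboat7 ASO 9, against 14.3 to 14.8.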

How the results depend on the processing

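No paired analysis was possible because the groups share no replicate numbers. At FDR 0.01, 6 members fell and 1 rose. Without normalization factors 3 fell and 13 rose, the members' median log2 fold change was 0.038, and these members changed sign, none of them called in the report: Srsf1 0.11, Srsf2 0.037, Sf3b6 0.049, Prpf39 0.077, Srsf3 0.039, Srsf7 0.027, Sf3b2 0.061, Snrpb 0.088, Snrpb2 0.081, Srsf6 0.0044, Prpf3 0.056, Prpf38b 0.073, Sf3a3 0.11, Srsf10 0.085, Srsf9 0.00082, Prpf31 0.041, Snrpa1 0.10 and Lsm4 0.014. With the length trend removed, 9 fell and 3 rose, and the sign changed for Sf3b1 -0.10, Snrpf 0.052, Prpf8 -0.11, Sf3b6 0.10, Prpf4b -0.040, Snrpd1 0.00021, Prpf19 -0.013, Prpf18 -0.0020, Snrpb 0.15, Snrpb2 0.019, Sf3a3 0.078, Srsf9 0.056, Snrpa1 0.15, Lsm4 0.12 and Qk -0.073. Of these, Prpf4b alone was called in the report, Snrpb passed with the trend removed, and Qk is no member. Prpf38a, near 0 in the report, changed sign under TMM factors (-0.00034), in voom with quality weights (-0.0077) and without Mboat7 ASO 6 or 7, with -0.015 to 0.045 over the fits without 1 library, and Srsf1 did so without control 3, with -0.081 to 0.00041 over such fits. Leaving out 1 library gave 1 to 3 members that rose and 9 to 15 that fell (12 with all libraries), with a median of -0.15 to -0.09. Of the 15 called members, 10 were called in all 10 such fits, and 12 of the members not called passed in at least 1. Under TMM and RLE factors, DESeq2, the likelihood ratio test, voom and other filters, 2 to 4 members rose and 10 to 17 fell. Leaving out control 2 and Mboat7 ASO 9, a choice made after seeing the data, gave 2 that rose and 9 that fell. Srsf5 and Snrpd3 were called in all 21 alternatives. At 5 livers per group, a member that did not pass may still differ within the intervals given, which hold for upper-quartile factors and all libraries. Counting intervals cover counting error only, since the reads carry no molecular identifiers.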
